A study of Mus musculus with 20 samples.

Results

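The genes described here are the mouse collagen genes, chosen as the gene symbols made of Col, a number, the letter a and another number. The rule found 44 of the 43280 gene symbols with counts. At least 1 read pair was counted for 43 of them in the embryonic libraries and for 40 in the adult libraries. Their mRNA was described across the stomach and intestine of the embryo, control and *Eed* KO cells, and the adult intestine.

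Collagens are the main structural proteins of the extracellular matrix, and each is built from chains that wind into a triple helix, either of 1 kind of chain or of several kinds encoded by separate genes. Fibrillar collagens, such as types I, III and V, form the fibres that give connective tissue its tensile strength, whereas type IV chains form the sheet-like network of basement membranes. Type VI chains form beaded filaments around cells, type VIII and type X chains form hexagonal networks, type VII forms the anchoring fibrils below epithelia, and the FACIT collagens sit on the surface of fibrils. Other members cross the cell membrane or, as the multiplexins *Col15a1* and *Col18a1*, lie in the basement membrane zone. In the gut wall, mesenchymal cells are the main source of the fibrillar and type VI chains.

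At E13.5, GFP+ cells of the mesenchyme were sorted, and RNA-seq gave 2 libraries in each of 4 groups, 8 in all. The control embryos carried Bapx1-cre and Rosa26mTmG, a reporter that turns cells with past Cre activity to GFP, and the *Eed* KO embryos carried Eedfl/fl in addition. The embryos are labelled C57BL/6, while the study's methods give mixed backgrounds for its mice. *Eed* encodes a core subunit of Polycomb repressive complex 2 (PRC2), which deposits the repressive mark H3K27me3. The 4 adult libraries, 2 labelled WT and 2 labelled EED-KO, came from GFP+ cells sorted from the small intestine, with villi removed, of adult mice that carried a tamoxifen-induced *Pdgfrb* Cre-ERT2 and Rosa26mTmG, with or without Eedfl/fl. GFP marks cells in which the driver was active and their progeny, *Bapx1* (*Nkx3-2*) in the embryo and *Pdgfrb* in the adult, so the sorted populations are not the same. ATAC-seq, which maps open chromatin, gave 1 peak list for each of the 4 embryonic groups. Gene counts per library ranged from 30236159 to 39606157 in the embryonic and from 11404712 to 15903642 in the adult libraries. A count of 0 therefore allows up to 0.0992 CPM (counts scaled to a fixed library total) in the shallowest embryonic and 0.263 CPM in the shallowest adult library, by counting error alone.

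*Eed* was at 38.1 and 40.1 CPM in the control intestine and 10.7 and 8.58 CPM in the *Eed* KO intestine. Stomach controls had 40.0 and 41.5 CPM and the *Eed* KO stomach 11.5 and 7.40 CPM. In the adult it was at 29.7 and 33.4 CPM in the controls and 25.6 and 25 CPM in the libraries labelled *Eed* KO, with an adjusted p of 0.317 in edgeR's quasi-likelihood test. *Eed* mRNA thus differed between the embryonic genotypes by more than the spread between replicates, and the test did not call it in the adult, where the group is therefore named by its label.

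Some libraries stood apart in ways that touch the collagen results. In each embryonic group, most of the 42 members that passed the filter on low counts were higher in replicate 2 than in replicate 1: 39 in the control intestine, 40 in the *Eed* KO intestine, 33 in the control stomach and 38 in the *Eed* KO stomach. The median log2 difference between these replicates was 0.41, 0.94, 0.35 and 0.50 over the members, and 0.00 over all 16218 genes in each group. In the same order of groups, the medians were 0.02, 0.19, 0.05 and 0.13 over genes of at least 5000 bp and -0.02, -0.20, -0.08 and -0.13 over genes under 2000 bp, and 36 of the 44 members are at least 5000 bp long. In the adult libraries labelled *Eed* KO, 8 macrophage markers summed to between 18972 and 19423 CPM, against 699 to 939 CPM in the adult controls, and all 8 were called higher. The 9 mesenchyme markers summed to between 862 and 869.5 CPM there, against 1889 to 2193 CPM, and 3 of the 7 tested were called lower. None of the markers in either list was at 0 in a group of adult libraries. Since RNA of sorted pools was measured, fewer cells of a type and less RNA per cell cannot be told apart.

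Promoter sequences from RefSeq on GRCm38.p6 were matched by symbol to 35 of the 44 members. The members without an entry were *Col1a1*, *Col2a1*, *Col4a3*, *Col5a2*, *Col9a3*, *Col12a1*, *Col14a1*, *Col22a1* and *Col26a1*. The 250 bases before the start were searched on both strands for the TATA box (TATAAA), the CCAAT box (CCAAT) and the GC box bound by Sp1-type factors (GGGCGG), whose letters do not overlap. The GC box was found in 21 members (60%) and in 32.94% of 27025 genes. TATAAA was found in 5 members (14.29%) and 12.97% of genes, and CCAAT in 12 members (34.29%) and 34.46% of genes. The promoters of 5 members are given, 5′ to 3′ on the strand of the gene, with these motifs in capitals: of *Col3a1* as the most abundant member with an entry, of the neighbours *Col6a6* and *Col6a5*, whose levels differed between organs or ages, and of *Col13a1* and *Col15a1*, which were called in *Eed* KO cells. They lie at chr1:45311288-45311537 on the plus strand for *Col3a1*, chr9:105828161-105828335 on the minus strand for *Col6a6*, chr9:105960644-105960893 on the minus strand for *Col6a5*, chr10:61979109-61979358 on the minus strand for *Col13a1* and chr4:47207762-47208011 on the plus strand for *Col15a1*. For *Col6a6* the first 175 of the 250 bases are given, up to an annotated exon.
*Col3a1* promoter: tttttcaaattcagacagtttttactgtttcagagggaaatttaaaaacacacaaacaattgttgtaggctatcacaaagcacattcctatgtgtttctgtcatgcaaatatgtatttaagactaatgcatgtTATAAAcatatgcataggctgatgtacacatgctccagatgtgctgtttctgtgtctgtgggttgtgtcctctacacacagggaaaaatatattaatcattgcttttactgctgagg
*Col6a6* promoter: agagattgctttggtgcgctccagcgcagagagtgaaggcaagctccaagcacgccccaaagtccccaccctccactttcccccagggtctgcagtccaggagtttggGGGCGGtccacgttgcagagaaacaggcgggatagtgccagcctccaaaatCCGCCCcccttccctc
*Col6a5* promoter: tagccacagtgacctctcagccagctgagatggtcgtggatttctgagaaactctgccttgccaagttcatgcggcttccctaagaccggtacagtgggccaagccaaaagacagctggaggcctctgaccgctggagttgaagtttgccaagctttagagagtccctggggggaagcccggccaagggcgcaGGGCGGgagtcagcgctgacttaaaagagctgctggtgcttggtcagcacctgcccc
*Col13a1* promoter: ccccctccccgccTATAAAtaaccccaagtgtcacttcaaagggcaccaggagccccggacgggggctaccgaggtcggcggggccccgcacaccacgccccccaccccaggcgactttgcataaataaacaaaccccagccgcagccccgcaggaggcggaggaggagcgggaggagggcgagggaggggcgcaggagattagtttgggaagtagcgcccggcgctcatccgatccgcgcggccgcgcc
*Col15a1* promoter: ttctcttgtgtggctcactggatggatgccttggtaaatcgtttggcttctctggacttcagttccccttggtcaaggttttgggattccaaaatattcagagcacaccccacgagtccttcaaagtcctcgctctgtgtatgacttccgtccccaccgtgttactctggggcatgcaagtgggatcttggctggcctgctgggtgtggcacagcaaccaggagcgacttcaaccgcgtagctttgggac
*Col3a1* had TATAAA 117 bases before its start and *Col13a1* had it 237 bases before its start. *Col6a5* had 1 GC box, *Col6a6* had 2 on opposite strands, and *Col15a1* had none of the 3 motifs in this window. A match describes the letters only and was not tested as a binding site.

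In the ATAC-seq lists, a peak lay within 1000 bp of the annotated start of 39 of the 44 members in all 4 lists. For *Col9a1*, *Col10a1* and *Col17a1* no such peak was listed. *Col20a1* had a peak in the control stomach and *Eed* KO intestine lists and *Col28a1* in that of the control intestine. Among the 42 members in the embryonic RNA test, 95.2% had a start peak in the control intestine and 92.9% in each of the other 3 lists, beside 88.0% to 89.1% of 16191 tested genes. The members were not above all genes throughout: with peaks at a −log10 q of at least 5, 81.0% to 88.1% of members and 84.6% to 86.4% of genes had one, and with at least 50% of the peak in the window 78.6% to 85.7% and 84.2% to 84.6%. The median fold enrichment of these peaks, as the authors' peak caller gave it, was 4.31 to 4.63 over the members and 6.46 to 6.91 over all tested genes. Replicates were pooled before peaks were called, so these values have no replicate error and no test. The start peak of *Col15a1* had a fold enrichment of 3.86 in control and 3.85 in *Eed* KO intestine, and of 4.36 in control and 4.22 in *Eed* KO stomach. That of *Col13a1* had 4.01 and 3.48 in control and *Eed* KO intestine and 3.74 and 4.02 in control and *Eed* KO stomach.

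Levels of different genes were compared as TPM, counts divided by gene length and scaled to the same sum in each library. Collagen mRNA made up 0.783% ± 0.167 (SD, n = 2) of TPM in the control intestine, 0.857% ± 0.386 in the *Eed* KO intestine, 0.774% ± 0.140 in the control stomach and 0.984% ± 0.317 in the *Eed* KO stomach. In the adult intestine it made up 0.505% ± 0.00288 in the controls and 0.119% ± 0.0433 in the libraries labelled *Eed* KO. The embryonic groups overlapped and the adult groups did not. *Col1a1*, *Col1a2* and *Col3a1*, the chains of types I and III, held 61.4% to 71.6% of collagen TPM in the embryonic libraries and 54.8% to 58.6% in the adult libraries.

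**Figure D1:**
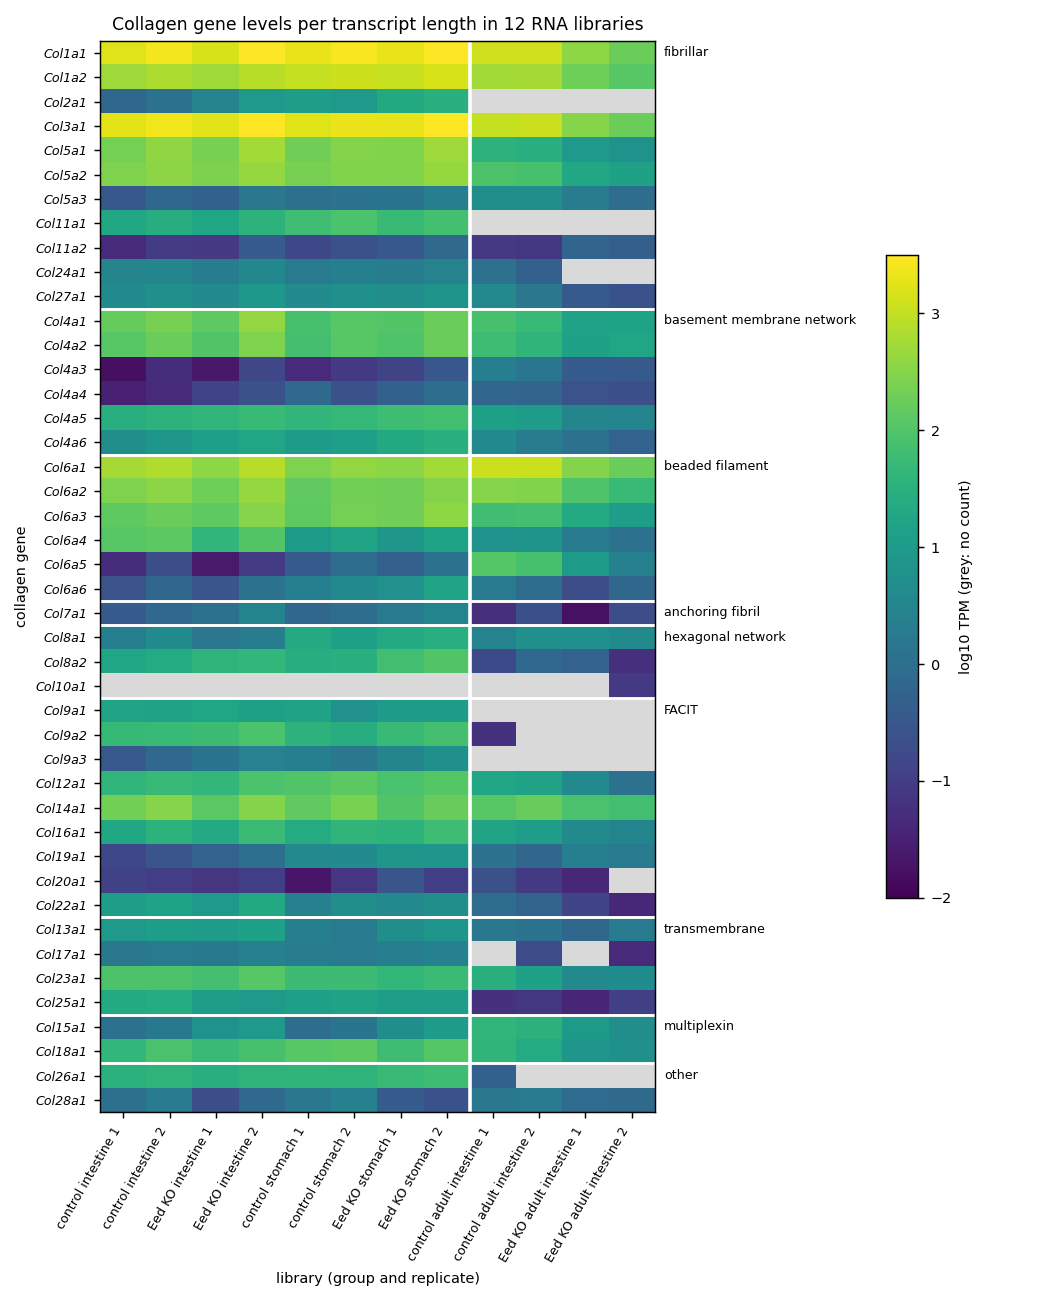
Level of each of the 44 collagen genes (grouped by structural class) in each of the 12 RNA libraries, as log10 TPM in colour, with grey for no count. *Col1a1* and *Col3a1* are the highest in every embryonic library, while *Col2a1*, *Col9a1*, *Col9a3* and *Col11a1* have no count in any of the 4 adult libraries.

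The fibrillar genes led the order. Over the 8 embryonic libraries, *Col1a1* ranged from 1459 to 3948 TPM and *Col3a1* from 1744 to 3083 TPM, so these neighbours in the order were not apart. *Col1a2*, the partner of *Col1a1* in type I, ranged from 484 to 1479 TPM, below the range of *Col3a1*. The type V chains *Col5a1* and *Col5a2*, which help fibrils to start, ranged from 206 to 549 and from 237 to 423 TPM. *Col6a1* led the beaded filament genes, at 279.9 to 828 TPM, followed by *Col6a2* at 141 to 432 and *Col6a3* at 134 to 362 TPM. The FACIT gene *Col14a1* (102 to 315 TPM) and the basement membrane gene *Col4a1* (81.1 to 405 TPM) completed the leading 10, and from *Col1a2* down each range overlapped that of its neighbours in the order. In the adult controls, *Col6a1* stood at 1125 and 1144 TPM, beside *Col1a1* at 1255 and 1259.5 and *Col3a1* at 1041 and 1147 TPM. *Col6a5*, at 112 and 78.3 TPM in the adult controls, was among the leading 10 in the adult libraries and not in the embryonic ones. At the other end, *Col10a1*, the hypertrophic cartilage collagen, and *Col20a1* stayed under 1 TPM in all 12 libraries and were too low for every test. *Col7a1*, the anchoring fibril gene, ranged from 0.0179 to 3.07 TPM and was called in no comparison of 2 groups, nor were *Col9a3* and *Col14a1*, apart from *Col9a3* in alternatives given with the organs.

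Ratios of partner chains were compared in TPM within each library. *Col4a1* and *Col4a2*, chains of the most widespread basement membrane network, start 21 bp apart on opposite strands of a shared chromosome, and their ratio was 1.02 to 1.52 in the embryonic and 0.850 to 1.29 in the adult libraries. The ratio of *Col1a1* to *Col1a2* was 1.97 to 3.85 in the embryonic and 1.61 to 2.34 in the adult libraries. These ranges overlapped between the ages. The type VI ratios did not: *Col6a1* to *Col6a2* was 1.69 to 2.13 in the embryo and 3.15 to 3.93 in the adult, and *Col6a1* to *Col6a3* was 1.51 to 4.14 and 13.52 to 16.9. Likewise, *Col5a1* to *Col5a2* was 0.828 to 1.30 in the embryo and 0.374 to 0.491 in the adult, and *Col8a1* to *Col8a2* was 0.0383 to 0.846 and 7.63 to 77.3. The adult *Col8a2* values rest on few counts, 4 and 19 in the controls and 13 and 2 in the libraries labelled *Eed* KO. Of the type IX chains, known from cartilage, *Col9a2* was 2.41 to 6.94 times *Col9a1* in the embryonic libraries. The embryonic and adult libraries were made with different kits, and the part of the kit in these ratios was not tested.

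Between the control organs at E13.5, 7 of the 42 members tested differed, 2 with the higher level in the intestine and 5 in the stomach. Over all 16218 genes, 5.07% were called, 1.68% toward the intestine and 3.39% toward the stomach. A gene was called at an adjusted p under 0.05 (edgeR, Benjamini-Hochberg) with a log2 difference above 1 in size. The median log2 difference, intestine minus stomach, was -0.18 over the members and 0.00 over all genes. The genes of types I, III and V were not called. In a further fit, the organs of a genotype were paired by replicate number, although no label ties these numbers to animals. With this assumed pairing 10 members were called toward the stomach, with *Col5a3*, *Col6a5*, *Col6a6*, *Col9a3* and *Col12a1* in addition. Toward the intestine 3 were called, with *Col22a1* in addition. Over all genes 4.63% were called toward the stomach and 2.29% toward the intestine (6.92% together). Of the markers of other cells, 4 of 8 endothelial and 2 of 9 smooth muscle markers were called higher in the intestine, and 3 of 8 epithelial markers, 1 of 6 mesothelial and 1 of 8 enteric neural crest markers higher in the stomach. Their part in the collagen differences was not tested.

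*Col6a4*, which encodes an alternative chain of type VI, had the largest difference toward the intestine. It was at 341 and 369 CPM in the control intestine and 27.5 and 45.2 CPM in the control stomach (log2 difference 3.29, SE 0.48, adjusted p = 0.00735). *Col13a1*, a transmembrane collagen of cell adhesion sites, was at 14.6 and 18.7 CPM in the intestine and 3.51 and 2.88 CPM in the stomach (log2 difference 2.38, SE 0.22, adjusted p = 0.00101). Both genes were apart between the organs, which with 2 libraries against 2 adds no support to a call, here or below. Without replicate 1 of the control stomach, *Col6a4* was not called (adjusted p = 0.0633).

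The members higher in the stomach included chains best known from cartilage. *Col11a1*, a fibrillar chain that limits fibril diameter, was at 64.1 and 84.4 CPM in the intestine and 209 and 276 CPM in the stomach (log2 difference -1.71, SE 0.32, adjusted p = 0.0206). *Col2a1*, the main cartilage fibril chain, was at 1.49 and 2.19 CPM in the intestine and 23.96 and 18.4 CPM in the stomach (log2 difference -3.53, SE 0.54, adjusted p = 0.00840). Neither gene overlapped between the organs. *Sox9*, the transcription factor of chondrogenesis, was at 0.983 and 1.18 CPM in the intestine and 12.3 and 10.6 CPM in the stomach (log2 difference -3.40, SE 0.22, adjusted p = 3.19e-04). It was the only 1 called of the 6 tested cartilage markers, whose median log2 difference was -2.79. With 3 untested ones they summed to between 37.6 and 43.3 CPM in the intestine and between 47.6 and 48.5 CPM in the stomach. *Matn1* and *Ucma* were at 0 in the intestine and *Ucma* at 0 in the stomach. Their part in the result was not tested. *Col9a1*, *Col9a2* and *Col9a3* were not called, with log2 differences of 0.56, 0.72 and -1.84, although *Col9a3* was called with the organs paired by number.

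Outside the fibrils, *Col19a1*, a FACIT gene of basement membrane zones, was at 0.365 and 0.639 CPM in the intestine and 8.72 and 10.4 CPM in the stomach (log2 difference -4.27, SE 0.36, adjusted p = 7.47e-04). *Col8a1*, a hexagonal network chain, was at 4.02 and 7.60 CPM in the intestine and 37.9 and 22.7 CPM in the stomach (log2 difference -2.39, SE 0.35, adjusted p = 0.00741). *Col4a4*, a basement membrane chain, was at 0.112 and 0.168 CPM in the intestine, from 9 counts in all, and 2.61 and 0.790 CPM in the stomach (log2 difference -3.58, SE 0.78, adjusted p = 0.0354). In these genes too the organs were apart. *Col8a1*, *Col13a1* and *Col19a1* were called with any of the 4 libraries left out, whereas *Col11a1* was not called when any of them was left out. Fewer members were called higher in the stomach without either control intestine library or without replicate 1 of the control stomach. Fewer of all genes were called there as well. DESeq2 called 9 members higher in the stomach, beside 653 of 16218 genes.

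**Figure D2:**
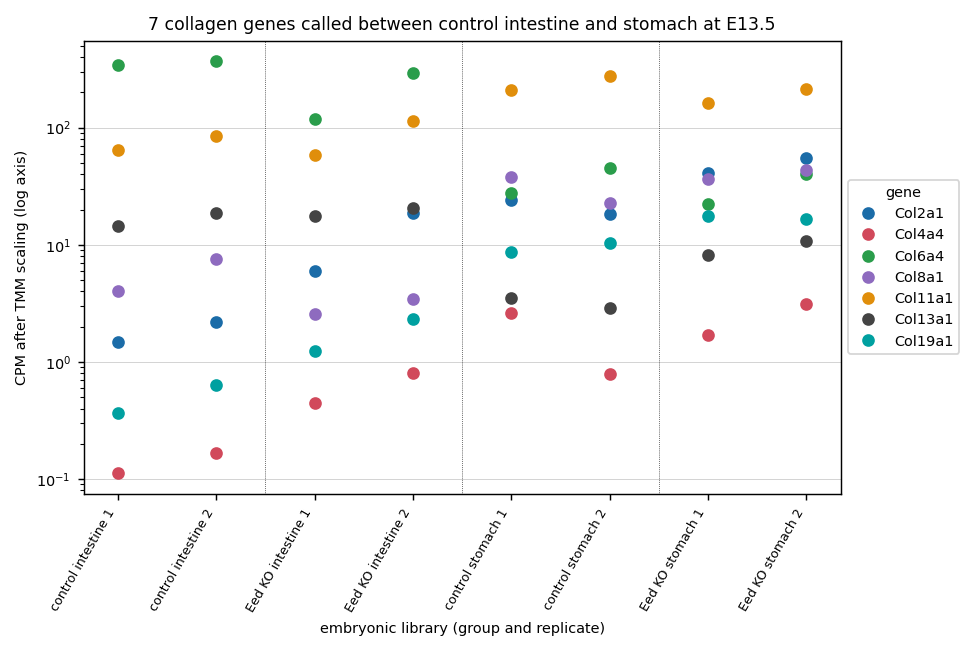
CPM after TMM scaling (log axis) of the 7 collagen genes called between the control organs, in each of the 8 embryonic libraries. *Col6a4* and *Col13a1* are higher in the control intestine and the other 5 genes are higher in the control stomach, with no overlap between the control groups.

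In the *Eed* KO intestine, 3 of the 42 members were called, 2 higher and 1 lower than in the control. Over all genes 2.61% were called, 2.38% higher and 0.228% lower. The median log2 change was 0.30 over the members and 0.01 over all genes. *Col15a1*, the multiplexin of vascular and muscle basement membranes, rose from 2.56 and 3.46 CPM to 13.6 and 18.9 CPM (log2 fold change 2.43, SE 0.35, adjusted p = 0.0144). *Col2a1* rose from 1.49 and 2.19 CPM to 5.99 and 18.5 CPM (log2 fold change 2.74, SE 0.53, adjusted p = 0.0397). *Col25a1*, a transmembrane collagen best known from neurons, fell from 71.8 and 78.1 CPM to 37.3 and 26.9 CPM (log2 fold change -1.22, SE 0.17, adjusted p = 0.0118). None of these overlapped between genotypes, although the *Eed* KO libraries were far apart for *Col2a1*. With 1 of the 4 libraries left out, the log2 fold change ranged from 2.18 to 2.66 for *Col15a1* and from 1.71 to 3.33 for *Col2a1*. For *Col25a1* it ranged from -1.49 to -1.01. None of these calls held in every such set, and fewer of all genes were called in each set as well. With all libraries, 12 members had an unadjusted p under 0.05 in edgeR, a count with no share of all genes to set beside it. DESeq2 called 6 members higher, beside 628 of 16218 genes.

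In the *Eed* KO stomach, 5 of the 42 members were called, 4 higher and 1 lower, beside 5.65% of all genes, 4.84% higher and 0.808% lower. The median log2 change was 0.44 over the members and 0.00 over all genes. *Col15a1* rose from 2.00 and 2.83 CPM to 11.1 and 20.5 CPM (log2 fold change 2.70, SE 0.35, adjusted p = 0.00528). *Col8a2*, the partner of *Col8a1* in the hexagonal network, rose from 39.3 and 46.7 CPM to 98.1 and 139.7 CPM (log2 fold change 1.47, SE 0.21, adjusted p = 0.00835). *Col13a1* rose from 3.51 and 2.88 CPM to 8.15 and 10.9 CPM (log2 fold change 1.57, SE 0.22, adjusted p = 0.00616). All 3 were apart between genotypes. *Col4a6*, a basement membrane chain known from smooth muscle, rose from 27.1 and 33.8 CPM to 54.6 and 76.0 CPM (log2 fold change 1.10, SE 0.26, adjusted p = 0.0434). *Col28a1*, a collagen of peripheral nerve, fell from 2.52 and 4.26 CPM to 0.617 and 0.356 CPM (log2 fold change -2.79, SE 0.60, adjusted p = 0.0326). These were also apart, but *Col28a1* was not called when any of the 4 stomach libraries was left out. Without replicate 1 or without replicate 2 of the control stomach, fewer members were called higher, as were fewer of all genes.

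Values in the organ where a member was not called were often of the same sign. *Col4a6* had a log2 change of 1.18 in the intestine (adjusted p = 0.0619), *Col8a2* of 0.98 (adjusted p = 0.0580) and *Col28a1* of -1.71 (adjusted p = 0.215). *Col2a1* had a log2 change of 1.19 in the stomach (adjusted p = 0.169). Whether the organs differed in these changes was tested as the control organ difference minus the *Eed* KO organ difference, called at an adjusted p under 0.2 with a log2 value above 1 in size. EdgeR called 0 of the 42 members, beside 0.462% of all genes. Its unadjusted p was under 0.05 for 4 members, a count with no share of all genes to set beside it. DESeq2 called 1 member, beside 207 of 16218 genes. With the organs paired by number edgeR called 2 members, *Col6a6* (log2 value 1.04, adjusted p = 0.167) and *Col13a1* (log2 value 1.36, adjusted p = 0.0275), beside 2.16% of all genes, 1.10% higher and 1.05% lower. Without this pairing, the lowest adjusted p in edgeR was that of *Col13a1* (log2 value 1.38, SE 0.29, adjusted p = 0.245).

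Endothelial markers moved together with *Col15a1*. Their 8 genes summed to between 22.4 and 26.2 CPM in the control and between 57.0 and 59.7 CPM in the *Eed* KO intestine, where 3 of 8 were called higher. In the stomach they summed to between 19.4 and 20.6 CPM in the control and between 33.0 and 52.5 CPM in the *Eed* KO, where 5 of 8 were called higher. None of the 8 was at 0 in any group. *Sox9* rose with *Col2a1* in the *Eed* KO intestine, from 0.983 and 1.18 CPM to 3.85 and 5.19 CPM (log2 fold change 2.07, SE 0.22, adjusted p = 0.00535). The 9 cartilage markers summed to between 51.6 and 56.0 CPM there, against 37.6 to 43.3 CPM in the control. In the stomach they went the other way, from 47.6 to 48.5 CPM in the control to between 38.2 and 43.7 CPM in the *Eed* KO. Of the cartilage markers 1 was called higher and 1 lower in the *Eed* KO stomach, and *Sox9* was not called. The part of these genes or of such cells in the collagen changes was not tested.

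The scaling bears on all *Eed* KO values. With libraries scaled to the spike-in RNA in place of TMM, the median log2 change of all genes moved to 1.85 (intestine) and 2.39 (stomach), and that of the members to 2.32 and 2.91. Under that scaling 37 members in the intestine and 41 in the stomach were called higher and none lower, beside 84.3% and 95.1% of all genes higher and 0.148% and 0.117% lower, and *Col25a1* in the intestine turned to 0.53. The changes above are therefore relative to all genes. DESeq2 was also run with 1 factor of unwanted variation taken from the spike-in RNA (RUVg). With it more members were called lower than higher in both organs. Over all 16218 genes, 319 were then higher and 161 lower in the intestine, and 376 higher and 323 lower in the stomach.

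**Figure D3:**
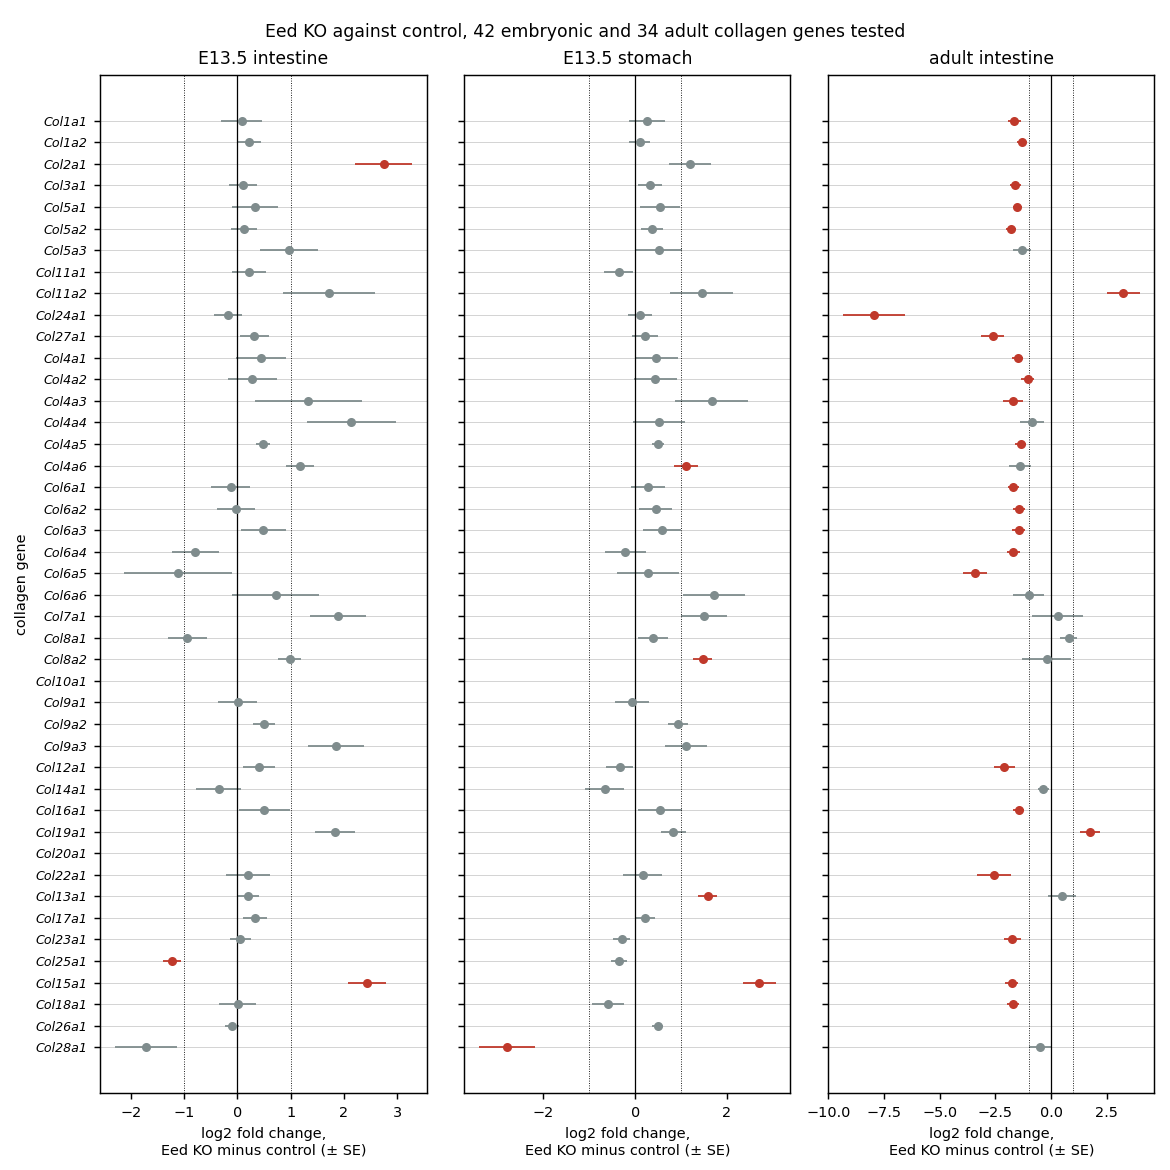
Log2 fold change, *Eed* KO minus control, with its standard error, for each collagen gene tested in the E13.5 intestine, E13.5 stomach and adult intestine, with called genes in red, others in grey and different horizontal scales. Under TMM scaling, 3 and 5 genes are called in the embryonic organs and 24 in the adult, 22 of these left of 0, while *Col25a1* (spike-in scaling) and *Col4a2* in the adult (mesenchyme marker scaling) change sides.

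In *Eed* KO cells, the organs differed in 7 members, 3 with the higher level in the intestine and 4 in the stomach. Over all genes 4.40% were called, 1.46% toward the intestine and 2.94% toward the stomach. With the organs paired by number, *Col22a1* was called toward the intestine in addition, and *Col2a1*, *Col4a4*, *Col9a3*, *Col11a1* and *Col11a2* toward the stomach. This gave 4 and 9 members beside 2.20% and 4.77% of all genes (6.97% together). *Col19a1* was at 1.24 and 2.31 CPM in the *Eed* KO intestine and 17.5 and 16.5 CPM in the *Eed* KO stomach (log2 difference -3.26, SE 0.31, adjusted p = 0.00177). *Col8a1* was at 2.56 and 3.48 CPM in the intestine and 36.5 and 43.2 CPM in the stomach (log2 difference -3.72, SE 0.37, adjusted p = 0.00222). These genes were called with any of the 4 libraries left out. *Col13a1* was at 17.5 and 20.6 CPM in the intestine and 8.15 and 10.9 CPM in the stomach (log2 difference 1.00, SE 0.20, adjusted p = 0.0293). *Col23a1*, a transmembrane collagen, was at 143 and 222 CPM in the intestine and 81.7 and 96.8 CPM in the stomach (log2 difference 1.03, SE 0.19, adjusted p = 0.0227). The organs were apart in all of these. *Col13a1* was not called when any of the 4 libraries was left out, nor *Col23a1* without replicate 2 of the *Eed* KO intestine or either *Eed* KO stomach library. Fewer members were called higher in the intestine without either *Eed* KO stomach library or without replicate 2 of the *Eed* KO intestine. Fewer were called higher in the stomach without replicate 2 of the *Eed* KO stomach. In each of these sets fewer of all genes were called in that direction as well. Smooth muscle markers summed to between 3616 and 6212 CPM in the *Eed* KO intestine and between 2019 and 2329 CPM in the *Eed* KO stomach, with 5 of 9 called higher in the intestine, and their part was not tested. The other 3 called genes lie side by side in the genome.

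These genes, *Col6a6*, *Col6a5* and *Col6a4*, follow each other on the minus strand of chromosome 9 (GRCm38/mm10), from 105687809 to 106096783, with gaps of 27917 bp and 28810 bp. Each encodes a chain that resembles the *Col6a3* chain of type VI. In *Eed* KO cells, *Col6a4* was at 119 and 292 CPM in the intestine and 22.2 and 40.4 CPM in the stomach (log2 difference 2.71, SE 0.47, adjusted p = 0.0175). *Col6a5* was at 0.0791 and 0.285 CPM in the intestine and 1.45 and 3.54 CPM in the stomach (log2 difference -3.77, SE 0.87, adjusted p = 0.0466). *Col6a6* was at 0.870 and 3.71 CPM in the intestine and 17.4 and 46.3 CPM in the stomach (log2 difference -3.81, SE 0.76, adjusted p = 0.0279). Thus *Col6a4* was the higher in intestine, and its neighbours in stomach, with no overlap. In the controls, *Col6a5* and *Col6a6* had log2 differences of -2.38 (adjusted p = 0.151) and -2.82 (adjusted p = 0.0855) and were not called, except with the organs paired by number. In the *Eed* KO comparison *Col6a5* was not called when any of the 4 libraries was left out, *Col6a6* without replicate 1 of the *Eed* KO intestine or replicate 2 of the *Eed* KO stomach, and *Col6a4* without replicate 1 of the *Eed* KO stomach.

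Per length, the leading gene of the cluster differed between the ages. *Col6a4* was at 118 and 132 TPM in the control intestine, 9.82 and 16.1 TPM in the control stomach and 6.50 and 7.19 TPM in the adult controls. *Col6a5* was at 0.0528 and 0.207 TPM in the control intestine, 0.375 and 0.945 TPM in the control stomach and 112 and 78.3 TPM in the adult controls. *Col6a6* was at 0.253 and 0.670 TPM in the control intestine, 2.38 and 4.06 TPM in the control stomach and 1.83 and 0.928 TPM in the adult controls. *Col6a4* led in both control organs of the embryo and *Col6a5* in the adult controls. Each had a start peak in all 4 ATAC-seq lists, with a fold enrichment in the control intestine of 5.97 for *Col6a4*, 2.97 for *Col6a5* and 3.91 for *Col6a6*. Genes annotated on the opposite strand overlap *Col6a4* and *Col6a6*, as they do *Col4a1* to *Col4a3*, *Col4a5*, *Col4a6*, *Col5a1*, *Col5a3*, *Col9a3*, *Col10a1*, *Col12a1*, *Col14a1*, *Col15a1*, *Col18a1* and *Col22a1*, and in the unstranded adult libraries such reads cannot be told apart.

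**Figure D4:**
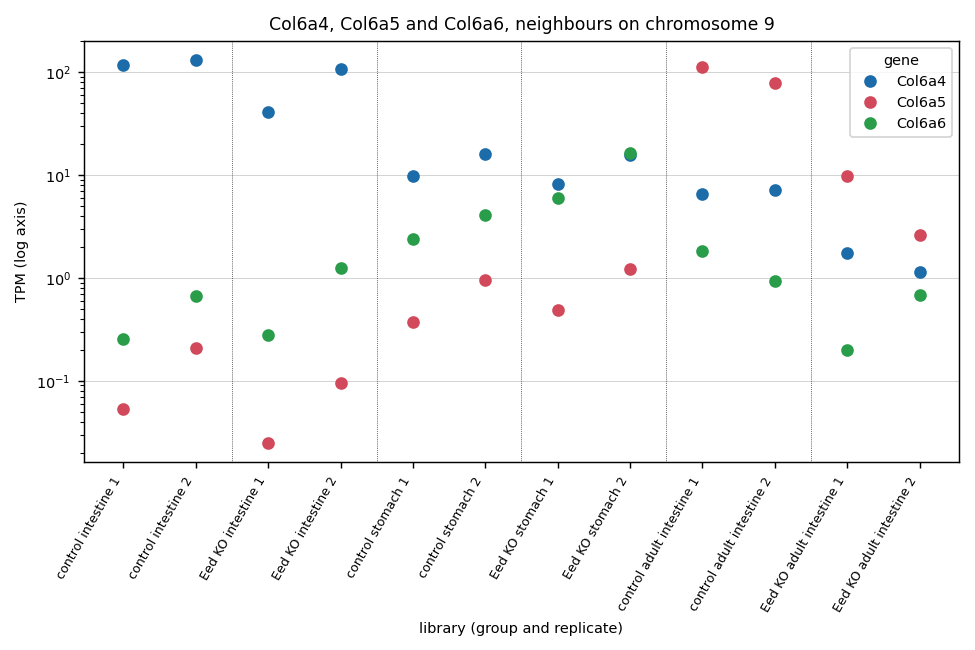
TPM (log axis) of the neighbouring genes *Col6a4*, *Col6a5* and *Col6a6* in each of the 12 RNA libraries. *Col6a4* is the highest of the 3 in every embryonic library except replicate 2 of the *Eed* KO stomach, where *Col6a6* is at 16.5 and *Col6a4* at 15.5 TPM, and *Col6a5* is the highest in all 4 adult libraries.

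The control intestine of adult and embryo differed in 23 of the 40 members tested, 8 higher and 15 lower in the adult. Over all 16491 genes 64.7% were called, 33.0% higher and 31.7% lower. The median log2 difference, adult minus embryonic, was -0.66 over the members, the same with the members at 0 set to their bounds, and 0.01 over all genes. Age, Cre driver, library kit, strandedness and sort went together in these libraries and cannot be told apart. *Col1a1* and *Col3a1* were not called, with log2 differences of -0.08 and -0.33.

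The members higher in the adult included further chains of type VI and of basement membranes. On the scale of this comparison, *Col6a5* was at 0.156 and 0.588 CPM in the embryo and 511 and 366 CPM in the adult (log2 difference 10.25, SE 0.46, adjusted p = 2.37e-05). *Col15a1* was at 2.36 and 3.19 CPM in the embryo and 130.1 and 107 CPM in the adult (log2 difference 5.42, SE 0.22, adjusted p = 1.92e-05). *Col4a3* and *Col4a4* encode chains of specialised basement membranes and start 72 bp apart on opposite strands of chromosome 1. *Col4a3* was at 0.0519 and 0.155 CPM in the embryo and 11.3 and 7.31 CPM in the adult (log2 difference 6.46, SE 0.59, adjusted p = 2.28e-04), and *Col4a4* at 0.104 and 0.155 CPM and 3.32 and 3.35 CPM (log2 difference 4.65, SE 0.49, adjusted p = 4.10e-04). The abundant network chains *Col4a1* and *Col4a2* were not called, with log2 differences of -0.92 and -0.91.

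*Col5a3*, another type V chain, was at 0.700 and 1.42 CPM in the embryo and 17.2 and 17.9 CPM in the adult (log2 difference 4.05, SE 0.40, adjusted p = 3.08e-04). *Col19a1* was at 0.337 and 0.588 CPM in the embryo and 4.15 and 2.20 CPM in the adult (log2 difference 2.78, SE 0.55, adjusted p = 0.00495). *Col6a1* was at 784 and 939 CPM in the embryo and 2387 and 2491 CPM in the adult (log2 difference 1.501, SE 0.14, adjusted p = 2.81e-04). *Col6a6*, at 0.726 and 1.86 against 8.12 and 4.23 CPM (log2 difference 2.26, SE 0.60, adjusted p = 0.0148), was not called without replicate 1 of the control intestine. The ages were apart in these genes as well, which adds no support to the calls. The endothelial markers, 7 of 8 called higher in the adult, and the macrophage markers, 8 of 8 called higher, moved in the same comparison. Lymphocyte markers were called higher in 7 of 7, mesothelial markers lower in 5 of 6 and mesenchyme markers lower in 5 of 9, with 1 of each of the last 2 lists higher. The part of these cells was not tested.

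The members lower in the adult included the cartilage-type chains. *Col11a1* was at 59.2 and 77.6 CPM in the embryo and had 0 counts in the adult controls, at least 500.2-fold lower against a floor of 3 counts over the group. *Col9a1*, at 25.3 and 22.2 CPM in the embryo, was at least 177-fold lower, and *Col2a1*, at 1.37 and 2.01 CPM, at least 12.3-fold lower by the same floor. *Col9a2* had 1 count in the adult controls against 3472 in the embryo, an embryonic to adult ratio, scaled to library size, of 1087 with a 95% counting interval of 195 to 42956. The 3 chondrogenic regulators measured, *Sox5*, *Sox6* and *Sox9*, went the other way. All 3 were called higher in the adult (median log2 difference 1.27). Of the 3 cartilage markers tested, 1 was called higher and 1 lower. Their part was not tested. Among the other fibrillar chains, *Col5a1* was at 597 and 988 CPM in the embryo and 149 and 127 CPM in the adult (log2 difference -2.52, adjusted p = 3.90e-04), and *Col5a2* at 814 and 989.7 and 432 and 383 CPM (log2 difference -1.14, adjusted p = 8.64e-04). *Col5a2* was not called without replicate 2 of the control intestine. *Col24a1*, a minor fibrillar chain, was at 7.78 and 7.61 and 4.15 and 1.94 CPM (log2 difference -1.34) and was not called without replicate 1 or 2 of the control intestine or replicate 2 of the adult controls.

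All 4 transmembrane collagens were lower in the adult. *Col25a1* was at 66.3 and 71.9 CPM in the embryo and 0.277 and 0.352 CPM in the adult (log2 difference -7.75, SE 0.24, adjusted p = 1.33e-05). *Col13a1* was at 13.46 and 17.2 against 3.505 and 2.82 CPM (log2 difference -2.28). *Col17a1*, the collagen of hemidesmosomes, was at 2.85 and 3.00 against 0 and 0.528 CPM (log2 difference -3.42). *Col23a1*, at 166 and 157 against 84.3 and 40.2 CPM (log2 difference -1.38), was not called without replicate 2 of the adult controls. Of the remaining classes, *Col6a4* was at 315 and 339 against 26.8 and 30.5 CPM (log2 difference -3.51), *Col8a2* at 23.99 and 33.3 against 0.369 and 1.67 CPM (log2 difference -4.79) and *Col22a1*, a FACIT gene of tissue junctions, at 33.1 and 43.0 against 4.15 and 2.73 CPM (log2 difference -3.47). *Col26a1*, a collagen known from the gonads, was at 59.0 and 66.0 CPM in the embryo and 1.48 and 0 CPM in the adult, where all 16 counts came from replicate 1. The ages were apart in all of these genes.

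Among the adult libraries, collagen genes were lower in those labelled *Eed* KO. Of the 34 members tested, 22 were called lower and 2 higher, beside 19.6% of all 15039 genes, 7.23% lower and 12.3% higher. The median log2 change was -1.46 over the members, the same with *Col24a1* at its bound, and 0.00 over all genes. With spike-in scaling the medians were -1.85 over the members and -0.42 over all genes. Under it 22 of the member calls were kept and 2 were not, beside 2475 of the 15039 genes called. With the libraries scaled to the summed mesenchyme markers in place of TMM, a setting chosen after the data were seen, the median of all genes moved to 1.23 and that of the members to -0.23, and 3 members (*Col6a5*, *Col24a1*, *Col27a1*) were called lower and 4 higher (*Col8a1*, *Col11a2*, *Col13a1*, *Col19a1*), beside 1.15% and 53.4% of all genes. The fold changes that follow are relative to all genes, in libraries whose macrophage and mesenchyme markers differed as given above. Under TMM the 7 tested mesenchyme markers had a median log2 change of -0.65, with 3 called lower. The part of those cells was not tested. The marker scaling rests on the sum of 9 markers, in which the most abundant weigh most, so it does not measure the share of a cell type. With 1 library left out, fewer members were called lower and fewer higher. Fewer of all genes were called as well, except that more were lower without replicate 1 of the libraries labelled *Eed* KO.

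**Figure D5:**
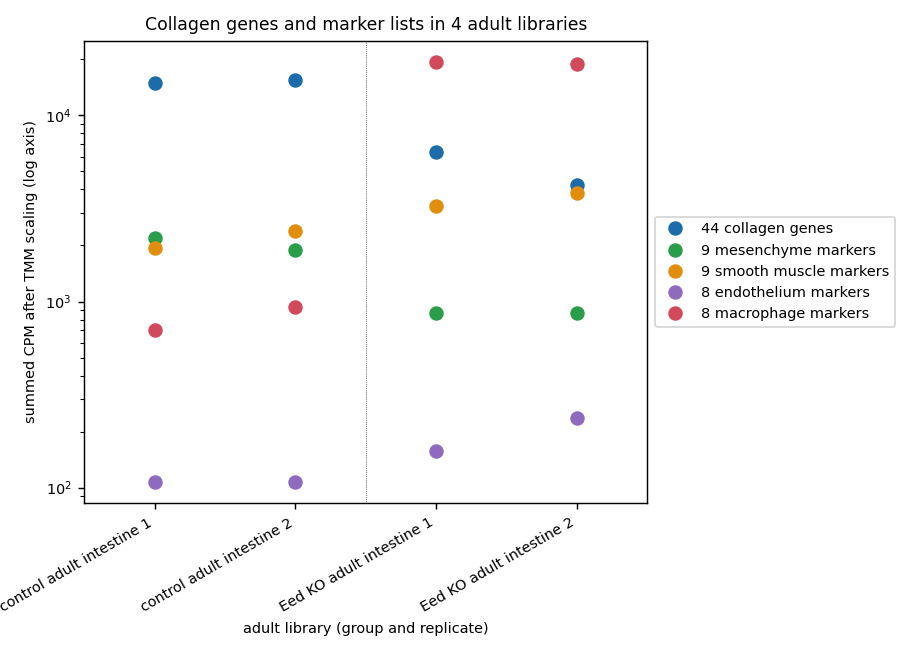
Summed CPM after TMM scaling (log axis) of the 44 collagen genes and of 4 marker lists in each of the 4 adult libraries. In the libraries labelled *Eed* KO the collagen sum is 6379 and 4211 CPM, against 14873 and 15517 CPM in the controls, the mesenchyme sum is lower than in the controls, and the macrophage sum is above it.

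Of the 9 fibrillar genes tested, 7 fell and 1 rose. *Col3a1* fell from 3922 and 4445 CPM in the controls to 1662 and 1092 CPM in the libraries labelled *Eed* KO (log2 fold change -1.60, SE 0.25, adjusted p = 0.00504). *Col1a1* fell from 3161 and 3263 CPM to 1309 and 742 CPM (log2 fold change -1.65, SE 0.29, adjusted p = 0.00755), and *Col1a2* from 2494 and 2706 CPM to 1247 and 851 CPM (log2 fold change -1.31, SE 0.24, adjusted p = 0.00852). The groups were apart in each of these genes. *Col5a2* fell from 342 and 304 CPM to 106 and 80.5 CPM (log2 fold change -1.80, SE 0.22, adjusted p = 0.00180), and *Col5a1* from 118 and 101 CPM to 41.5 and 35.0 CPM (log2 fold change -1.52, SE 0.20, adjusted p = 0.00262). With the marker scaling none of these 5 genes was called. *Col27a1*, a fibrillar chain known from cartilage, fell from 19.6 and 7.76 CPM to 2.504 and 1.93 CPM (log2 fold change -2.63, SE 0.53, adjusted p = 0.0133), and was not called without replicate 1 of the controls or replicate 2 of the libraries labelled *Eed* KO. *Col24a1* was at 3.29 and 1.54 CPM in the controls and had 0 counts in both libraries labelled *Eed* KO, at least 18.3-fold lower against the floor of 3 counts over the group. Both were called also with the marker scaling. *Col11a2*, a fibrillar chain known from cartilage, rose from 0.219 and 0.210 CPM to 2.30 and 1.93 CPM (log2 fold change 3.24, SE 0.72, adjusted p = 0.0190), on 6 counts in the controls, and was not called with any 1 library left out.

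Of the 6 beaded filament genes, 5 fell. *Col6a5* fell from 405 and 291 CPM to 50.7 and 14.7 CPM (log2 fold change -3.41, SE 0.55, adjusted p = 0.00564). *Col6a1* fell from 1890.3 and 1979 CPM to 737 and 459 CPM (log2 fold change -1.69, SE 0.26, adjusted p = 0.00465). With the marker scaling *Col6a5* was called, at -2.16 (adjusted p = 0.00373), and *Col6a1* was not. *Col6a2* fell from 989 and 957 CPM to 445 and 273 CPM (log2 fold change -1.44), *Col6a3* from 306 and 338 CPM to 149 and 84.6 CPM (log2 fold change -1.46) and *Col6a4* from 21.3 and 24.2 CPM to 8.11 and 5.86 CPM (log2 fold change -1.70). *Col6a6*, at 6.43 and 3.36 and 1.00 and 3.78 CPM, overlapped and was not called.

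Of the 6 basement membrane chains, 4 fell. *Col4a1* fell from 204 and 137 CPM to 56.1 and 64.1 CPM (log2 fold change -1.502, SE 0.25, adjusted p = 0.00589). *Col4a2* fell from 154 and 103 CPM to 49.98 and 73.2 CPM (log2 fold change -1.06, SE 0.28, adjusted p = 0.0341), was not called without replicate 1 of either group, and turned to 0.19 with the marker scaling. *Col4a5* fell from 33.7 and 27.8 CPM to 11.7 and 12.1 CPM (log2 fold change -1.37). *Col4a3*, at 8.91 and 5.80 CPM and 2.20 and 2.24 CPM (log2 fold change -1.72), was not called with any 1 library left out. The neighbour of *Col4a3*, *Col4a4*, had a log2 change of -0.87 and did not pass the test (adjusted p = 0.301). Both multiplexins fell, *Col15a1* from 103 and 84.8 CPM to 34.6 and 20.5 CPM (log2 fold change -1.77, SE 0.28, adjusted p = 0.00535) and *Col18a1* from 109 and 68.3 CPM to 29.8 and 24.2 CPM (log2 fold change -1.72, SE 0.27, adjusted p = 0.00532). The endothelial markers summed to between 107 and 108 CPM in the controls and between 157 and 238 CPM in the libraries labelled *Eed* KO, opposite in direction to *Col15a1*.

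Of the 5 FACIT genes tested in the adult, 3 fell and 1 rose. *Col12a1*, which lies on the fibrils of dense connective tissue, fell from 103 and 87.8 CPM to 34.1 and 10.8 CPM (log2 fold change -2.099, SE 0.48, adjusted p = 0.0207). *Col16a1* fell from 41.9 and 32.4 CPM to 14.7 and 12.2 CPM (log2 fold change -1.46). *Col22a1*, at 3.29 and 2.17 CPM and 0.701 and 0.231 CPM (log2 fold change -2.57), was called only when all libraries or all but replicate 1 of those labelled *Eed* KO were used. *Col19a1* rose from 3.29 and 1.75 CPM to 8.71 and 8.10 CPM (log2 fold change 1.74, SE 0.46, adjusted p = 0.0352), and with the marker scaling was at 2.99 (adjusted p = 4.40e-04). Under TMM it was called, of the sets with 1 library left out, only without replicate 1 of the controls. *Col14a1*, a fibril-surface collagen, was at 319 and 469.8 CPM in the controls and 326 and 291 CPM in the libraries labelled *Eed* KO, with overlap between the groups (log2 fold change -0.35, adjusted p = 0.321). *Col23a1*, of the transmembrane class, fell from 66.8 and 32.0 CPM to 13.02 and 16.5 CPM (log2 fold change -1.74) and was not called without replicate 1 of either group.

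The change with *Eed* KO was compared between adult and embryonic intestine as the adult change minus the embryonic change, called at an adjusted p under 0.2. Of the 42 members tested, 24 were lower and 2 higher in this difference, beside 20.4% of all 18170 genes, 10.5% lower and 9.92% higher. With the marker scaling the median of all genes moved from -0.06 to 0.93 and that of the members from -1.76 to -0.74, with 9 members lower and 5 higher, beside 3.32% and 35.6% of all genes. *Col15a1*, which rose in the embryonic intestine and fell in the adult, had the lowest adjusted p of the members (log2 difference -4.21, SE 0.43, adjusted p = 0.00155), and was called also with the marker scaling, at -3.21. Without replicate 1 of the control intestine, fewer members were called lower, as were fewer of all genes.

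Beside the collagens, 69 genes of collagen folding, secretion, processing, crosslinking, fibril binding, breakdown, receptors and chondrogenic control were measured. Of the 64 tested in the embryo, 2 were higher and 3 lower in the control intestine than in the stomach, beside 1.68% and 3.39% of all genes. In the *Eed* KO intestine 1 of the 64 was higher, which was *Sox9*, beside 2.38% of all genes. In the *Eed* KO stomach 4 of the 64 were higher, beside 4.84% of all genes. *Lox*, an enzyme that crosslinks collagen, was at 66.4 and 102 CPM in the control intestine and 216 and 349 CPM in the control stomach (log2 difference -1.74, SE 0.33, adjusted p = 0.0215). *Dcn*, a small proteoglycan on fibrils, was at 100.5 and 134 CPM in the intestine and 298 and 525 CPM in the stomach (log2 difference -1.81, SE 0.29, adjusted p = 0.00997). *Tnxb*, another fibril-binding gene, was higher in the intestine, at 16.5 and 19.6 against 2.84 and 4.08 CPM (log2 difference 2.38, SE 0.47, adjusted p = 0.0248). The organs were apart in these genes. In the *Eed* KO stomach, *Bgn*, a fibril-binding proteoglycan, rose by 1.16, the collagen prolyl hydroxylase gene *P4ha3* by 1.10, the procollagen processing enhancer *Pcolce2* by 1.40 and the gelatinase gene *Mmp9* by 1.39 on the log2 scale.

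In the adult libraries labelled *Eed* KO, 21 of 64 pathway genes were lower and 4 higher, with a median log2 change of -0.77, beside the 7.23% lower and 12.3% higher of all genes. With the marker scaling their median was 0.46, against 1.23 over all genes, and 0 were lower and 17 higher, so the values that follow are relative to all genes. *Serpinh1*, the collagen chaperone, fell from 5534 and 8192 CPM to 2088 and 1409 CPM (log2 fold change -1.97, SE 0.29, adjusted p = 0.00386). *Itga11*, a fibroblast collagen receptor, fell from 76.5 and 73.5 CPM to 19.3 and 15.8 CPM (log2 fold change -2.09, SE 0.21, adjusted p = 7.58e-04). Of the 5 crosslinking enzymes, 3 fell, *Loxl1*, *Loxl2* and *Loxl4*, with log2 changes of -1.62, -1.66 and -1.78. The higher genes were *Mmp13*, *Mmp9*, *Lair1* and the prolyl hydroxylase gene *Leprel1*. *Mmp13*, a collagenase, was at 5.55 and 10.9 CPM in the controls and 788 and 679 CPM in the libraries labelled *Eed* KO (log2 fold change 6.48, SE 0.39, adjusted p = 1.24e-04). *Mmp9* had a log2 change of 5.31 and *Lair1*, an inhibitory collagen receptor of leukocytes, of 4.63. The macrophage markers rose in the same libraries, and their part in these changes was not tested. Between the ages, 30 of 65 pathway genes were higher and 10 lower in the adult control intestine, beside 33.0% and 31.7% of all genes.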

How the data were processed

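RNA-seq counts per gene were deposited for 12 libraries, 2 in each of 6 groups. According to the sources used here, the authors trimmed reads with Trimmomatic 0.32, aligned them with STAR 2.5.1b to GRCm38/mm10 and counted read pairs with featureCounts, version 1.5.0 per the file headers of the adult tables and given differently elsewhere in these sources, on GENCODE vM4 genes. The embryonic libraries were stranded poly(A) libraries and the adult ones came from an unstranded low-input kit, both with spike-in RNA. ATAC-seq reads were aligned with BWA 0.7.8, and MACS2 2.1.2 called peaks on 2 pooled samples per embryonic group. The deposited peak lists give the fold enrichment, a ratio over background, and −log10 of the q-value.

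Counts were used as deposited. EdgeR 4.0.16 (R 4.3.3) applied the filterByExpr filter, TMM scaling and the quasi-likelihood test, with Benjamini-Hochberg adjustment over all genes tested, in fits of the 8 embryonic libraries, the 4 adult libraries, the 4 control intestine libraries and the 8 intestine libraries. A call needed an adjusted p under 0.05, or 0.2 for the interactions, and a log2 change above 1 in size. CPM were computed after TMM scaling, and TPM from exon union lengths. A start peak lay within 1000 bp of the annotated start. The fits were tested on simulated data with 200 changed genes. Alternatives were DESeq2 1.42.0, no filter, replicate blocks, spike-in scaling, an RUVg factor, each library left out and, chosen after the data were seen, mesenchyme marker scaling.

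The members and all lists were chosen with earlier results of these data known. Members past the threshold in at least 1 comparison of 2 groups, and the 10 with the highest mean TPM in the embryonic or adult libraries, are given with their values, and up to 8 pathway genes per comparison with the largest change among those called and with a mean of at least 1 CPM. The study's methods call the 2 libraries of a group biological replicates. The protocol separated stomach and intestine of each animal without tying replicate numbers to animals. Same-numbered organs of a genotype deviated together (correlations of 0.265 in controls and 0.628 in Eed KO), so a fit with the organs paired by number within a genotype is given beside the organ comparisons. An exact permutation test of 2 against 2 cannot go below 0.333, so none was used. Groups of 2 libraries that are apart therefore add no support to a call, and no share of all genes that are apart is given. Gene counts set the depth, and intervals and limits cover counting error only.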

Additional observations from a re-analysis of the deposited data

Results flagged for a closer look

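The change with Eed KO differed between the adult and the embryonic intestine, by a test of the difference itself, in 26 members. These were among 42 members tested, beside 20.4% of all 18170 genes. Values are the adult minus the embryonic log2 change, in edgeR at an adjusted p under 0.2. The fibrillar members were *Col1a1* (-1.73), *Col1a2* (-1.53), *Col3a1* (-1.72), *Col5a1* (-1.85), *Col5a2* (-1.93), *Col5a3* (-2.27), *Col24a1* (-8.95) and *Col27a1* (-2.96). The basement membrane chains were *Col4a1* (-1.95), *Col4a2* (-1.34), *Col4a3* (-3.04), *Col4a4* (-3.00), *Col4a5* (-1.86) and *Col4a6* (-2.60). The beaded filament chains were *Col6a1* (-1.57), *Col6a2* (-1.42) and *Col6a3* (-1.95), the multiplexins *Col15a1* (-4.21) and *Col18a1* (-1.73), and the FACIT members *Col12a1* (-2.52), *Col16a1* (-1.97) and *Col22a1* (-2.81). The transmembrane members were *Col23a1* (-1.80) and *Col25a1* (1.99), and the others were *Col8a1* and *Col26a1*, at 1.71 and -6.97. The values for *Col24a1* and *Col26a1* rest on adult libraries with 0 counts and depend on the prior count, so they are no bound.

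The age, Cre driver and kit of these libraries went together and cannot be told apart. Macrophage markers were called higher and mesenchyme markers lower in the same difference, 5 of 8 and 4 of 9. With the marker scaling, chosen after the data were seen, *Col4a3*, *Col4a4*, *Col4a6*, *Col8a1*, *Col12a1*, *Col15a1*, *Col22a1*, *Col24a1*, *Col25a1*, *Col26a1* and *Col27a1* were still called in the same direction.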

How the results depend on the processing

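Counts over all genes are in brackets, of 16218 tested in the embryonic fit or 25364 without the filter. Between the control organs, 9 members were called higher in the stomach with DESeq2 (653) and 9 without the filter (747). With the replicate block by number 10 were called (673), with the organs paired by number within a genotype 10 (751) and with DESeq2 and 1 RUVg factor 11 (684). Under spike-in scaling 2 were higher in the stomach (85) and 1 in the intestine (70). For Eed KO against control intestine, 6 members were called higher with DESeq2 (628), 6 without the filter (734) and 6 with the replicate block by number (575). Spike-in scaling gave 37 higher (13664) and RUVg 1 (319). Without the filter 2 were lower (66), with spike-in scaling 0 (24) and with RUVg 3 (161). For the stomach, 7 were higher without the filter (1070), 41 with spike-in scaling (15419) and 2 with RUVg (376). With the last 2 settings 0 (19) and 6 (323) were lower. Between the Eed KO organs, 7 were higher in the stomach with DESeq2 (563), 7 without the filter (649) and 7 with RUVg (560). The organs paired by number gave 9 higher in the stomach (774), and spike-in scaling gave 0 higher in the intestine (20). The organ interaction gave 1 higher member with DESeq2 (108), 1 with the replicate block by number (104) and 1 with RUVg (106). It gave 2 higher without the filter (120), 2 with the organs paired by number (179), and 1 lower with RUVg (134). In the adult, with 15039 genes tested, 4 were higher (8038) and 3 lower (173) with the marker scaling. With spike-in scaling 1 was higher (1154) and with RUVg 1 (1838). The age interaction, with 18170 genes tested, gave 5 higher (6471) and 9 lower (604) with the marker scaling. *Col25a1* in the Eed KO intestine turned to 0.53 with spike-in scaling, *Col4a2* in the adult to 0.19 with the marker scaling, and *Col26a1* in the age interaction to 0.11 without control adult replicate 1, its only adult library with counts, within a range from -8.09 over the libraries left out. The cause of the other changes was not tested.

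With 1 library left out, the counts of members higher and lower were 2 and 2 to 4 between the control organs, 0 to 4 and 0 to 1 in the Eed KO intestine, 1 to 5 and 0 in the Eed KO stomach, 0 to 3 and 2 to 6 between the Eed KO organs, 0 to 1 and 0 to 1 in the organ interaction, 0 to 1 and 17 to 20 in the adult, 7 to 9 and 13 to 19 between the ages, and 0 to 4 and 15 to 24 in the age interaction. A group left with 1 library was assumed to vary like the others. The number of all genes called also moved with the library left out, and fell in most of these sets. Pairing the organs by number within a genotype changed no call of a member made without it. Over all genes, same-numbered libraries of different genotypes correlated in their deviations from the group means by 0.0470 to 0.151 in the embryo and by -0.0604 in the adult. These numbers were therefore not taken to pair the genotypes, and the replicate block by number changed the counts as given above. Among the members, however, 28 were higher in replicate 2 in all 4 embryonic groups. The share of collagen in all counts, in place of TPM, was 2.09% and 2.29% in control and Eed KO intestine, 2.19% and 2.65% in control and Eed KO stomach, and 1.80% and 0.450% in the adult groups. Start peaks at a −log10 q of at least 5 were found for 81.0% of tested members in the control intestine, below the 84.8% of all genes, and with at least 50% of the peak in the window for 78.6% in the Eed KO stomach, below 84.4% of all genes. Spike-in scaling moved the median log2 value of all genes to 0.30 between the control organs, -0.24 between the Eed KO organs, 0.53 in the organ interaction and -0.42 in the adult, and was not run between the ages. Depth limits the adult values of members with few counts, such as *Col26a1*, *Col11a2* and *Col24a1*.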
